A study of Mus musculus with 4 samples.

Results

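The 43 genes described here are a set of cell cycle and DNA replication genes measured in cultured resident peritoneal macrophages of C57BL/6 mice. They were taken by symbol from the array annotation, and all 43 were present among the 30222 gene names on the array. They comprise 13 replication genes, 4 regulators of the G1/S step and 26 mitotic genes. Total RNA was hybridised to 1-colour Agilent arrays. The 4 groups, of 1 array each, crossed genotype (wild type or CD163-deficient, the latter called deficient below) with culture in the presence or absence of LPS. CD163 is the haemoglobin scavenger receptor of macrophages, and LPS is the bacterial lipopolysaccharide sensed by Toll-like receptor signalling. All cells were grown in RPMI medium with fetal bovine serum for 2 days, and LPS was then given at 100 ng/mL for 1 day. How many animals supplied a culture, whether cells were pooled and which allele removes CD163 are not given in the sources used here.

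Because each group holds 1 array, every difference below is between single arrays, and no test or p-value is given. A level is the log2 processed signal minus the 75th percentile of the same array, so that a level of 0 is that percentile. Differences are on the same log2 scale, so that -1 is 2-fold lower. Feature Extraction's own error of a difference was about 0.20 for most of the genes, and it covers the spot and not the culture. For 399 probes printed as 10 spots, the median SD between spots was 0.10 to 0.12. The 75th percentile lay at an intensity of 909.6 to 1324.7, and 24721 to 26535 gene names were above background on an array. All 10 general macrophage markers were above background on all 4 arrays.

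A dividing cell first licenses its replication origins and raises its nucleotide supply, then copies its DNA, and then assembles the spindle that separates the chromosomes. Transcription of the first group is driven by E2F factors at the G1/S boundary. Transcription of the mitotic group is held back by the DREAM complex in resting cells and driven by MYBL2 and FOXM1 later in the cycle, through promoter elements called CHR and CCAAT boxes. Resident peritoneal macrophages can maintain their numbers by local division, and activation by LPS is known to slow proliferation of macrophages.

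The promoters of the members carried letters of these elements to different extents. RefSeq promoter windows (GRCm38.p6, 250 bases before to 50 after the start) were found for 34 of the 43 genes, in 36 windows. E2F letters were searched as TTTCGCGC, TTTGGCGC or TTTCCCGC, CHR letters as TTTGAA or TTCGAA, and the CCAAT box as CCAAT, on both strands. E2F letters stood in 41.7% of the 12 replication windows, in 4.55% of the 22 mitotic windows and in 1.84% of all 32851 windows. CHR letters stood in 81.8% of the mitotic windows, against 16.7% of the replication windows and 19.2% of all windows. CCAAT stood in 86.4%, 75% and 37.4% of the mitotic, replication and all windows. In the mitotic windows CHR letters began at a median position of -19 from the start and CCAAT at -72. The median G+C content was 59.8% in the mitotic windows, 57.3% in the replication windows and 52.7% in all windows, and neither window found for the G1/S regulators held any of these letters. The shares are descriptions of letters and were not tested.

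Of these windows, 6 are shown, those of the brightest replication and mitotic members with a match and of Fam83d, which differed most between the genotypes, from position -150 to 30 counted from the start, with matches in capitals. The replication windows hold E2F or CCAAT letters, and E2F and CCAAT matches on the opposite strand read as their reverse complement. In the Mcm6 window the E2F matches beginning at -110 and -106 overlap each other.
Pcna, chr2:132253151-132253330, minus strand: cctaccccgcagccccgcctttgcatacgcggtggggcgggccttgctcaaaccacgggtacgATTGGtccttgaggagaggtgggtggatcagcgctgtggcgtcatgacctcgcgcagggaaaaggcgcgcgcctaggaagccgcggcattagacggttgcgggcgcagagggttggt
Mcm6, chr1:128359676-128359855, minus strand: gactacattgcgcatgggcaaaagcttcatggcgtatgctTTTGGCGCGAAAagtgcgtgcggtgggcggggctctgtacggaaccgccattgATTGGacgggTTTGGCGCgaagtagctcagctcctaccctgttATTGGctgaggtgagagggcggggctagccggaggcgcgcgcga
Mcm3, chr1:20820283-20820462, minus strand: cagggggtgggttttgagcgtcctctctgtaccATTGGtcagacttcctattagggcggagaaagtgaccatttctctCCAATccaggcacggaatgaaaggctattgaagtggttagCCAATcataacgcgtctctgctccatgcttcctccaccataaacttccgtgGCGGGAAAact
The mitotic windows hold CHR and CCAAT letters. The CHR match of Plk1 begins at position 31, just past the stretch shown.
Mki67, chr7:135716350-135716529, minus strand: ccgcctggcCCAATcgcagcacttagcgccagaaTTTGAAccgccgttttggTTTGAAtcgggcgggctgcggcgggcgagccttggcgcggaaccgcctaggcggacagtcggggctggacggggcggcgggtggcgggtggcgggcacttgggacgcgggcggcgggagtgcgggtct
Plk1, chr7:122159285-122159464, plus strand: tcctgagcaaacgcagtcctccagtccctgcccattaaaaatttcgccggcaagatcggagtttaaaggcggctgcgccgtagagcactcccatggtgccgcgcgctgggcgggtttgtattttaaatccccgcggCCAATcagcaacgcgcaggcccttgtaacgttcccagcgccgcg
Fam83d, chr2:158767949-158768128, plus strand: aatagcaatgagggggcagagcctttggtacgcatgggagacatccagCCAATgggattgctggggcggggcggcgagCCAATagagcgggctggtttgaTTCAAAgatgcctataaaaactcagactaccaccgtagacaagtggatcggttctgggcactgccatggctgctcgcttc

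**Figure D1:**
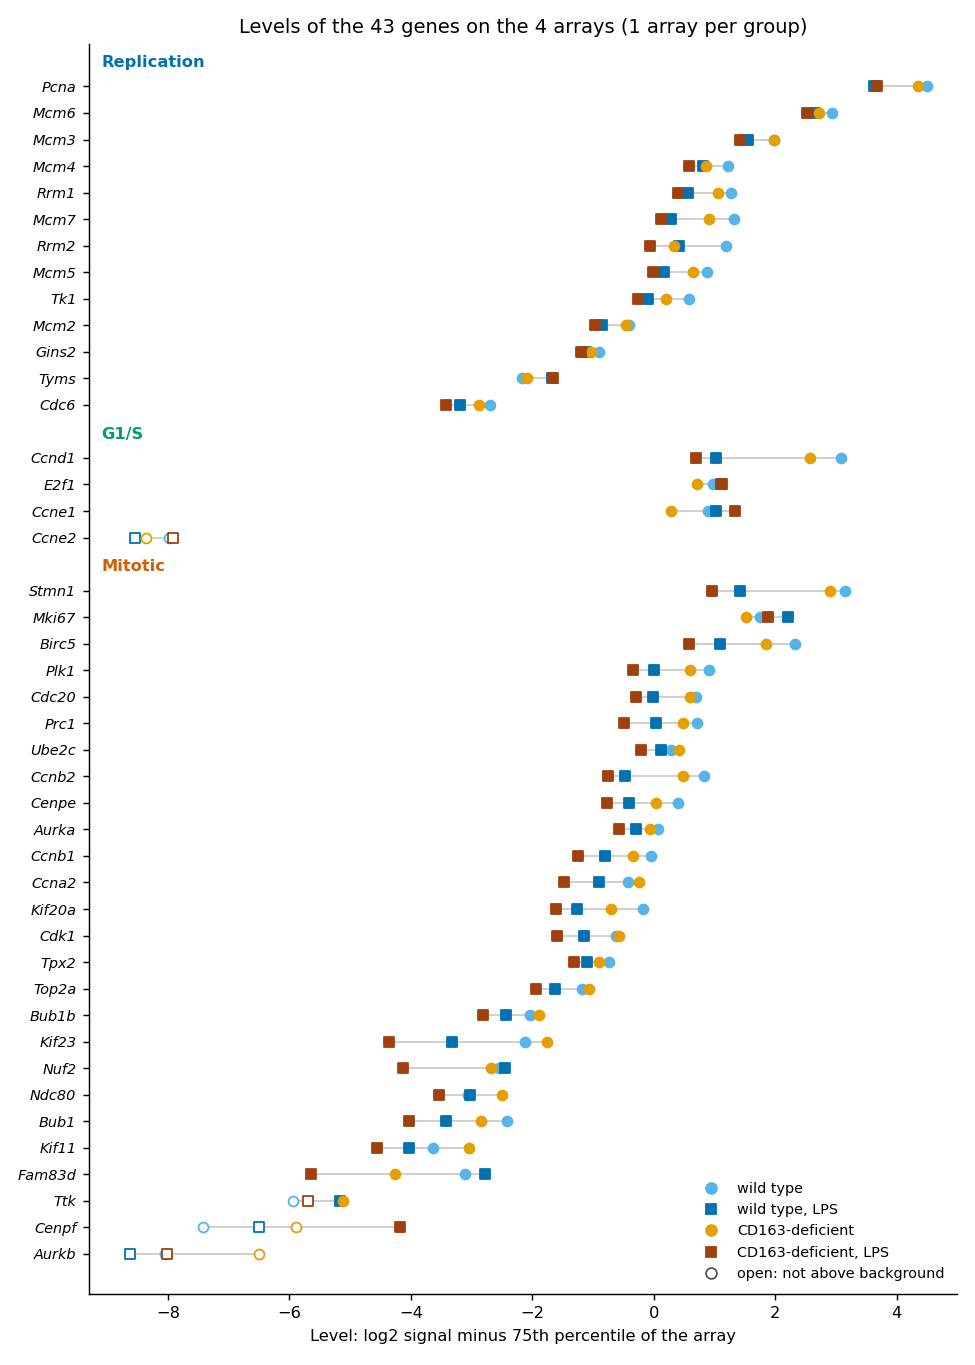
Level of each gene on each array, as log2 signal minus the array's 75th percentile, with genes ordered within their class and 1 point per array. Squares are LPS arrays, and they lie left of the circles of the same genotype for most genes, while open points were not above background.

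In the array annotation, on mm9, the probes of 5 members described below lay at chr4:134029695-134029754 (Stmn1), chr7:152116202-152116261 (Ccnd1), chr9:61767492-61767732 (Kif23), chr1:171428989-171429048 (Nuf2) and chr2:158611993-158612052 (Fam83d). Of the members, 39 to 40 of 43 were above background on an array. Ccne2 (cyclin E2) and Aurkb (Aurora kinase B) were not well above background on any array. Cenpf was above background only on the deficient LPS array, and the spindle checkpoint kinase gene Ttk on the wild-type LPS array and the deficient array without LPS. Of the 39 members above background on all 4 arrays, 34 had their lowest level on the deficient LPS array, against 25.2% of all such genes. Wild type without LPS gave the highest level for 24 of the 39, against 34.5% of all such genes. The counts were 11 and 11 of 13 for replication genes and 22 and 12 of 23 for mitotic genes.

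With LPS, cell cycle genes were lower in both genotypes. In wild type 32 of 40 genes compared were lower (median -0.48), where 49.5% of all genes compared were lower (median 0.01). In deficient cells 36 of 41 were lower (median -0.78), against 46.6% of all genes (median 0.04). Members at least 2-fold lower numbered 8 in wild type, where the share over all genes was 5.09%, and 12 in deficient cells, where it was 5.5%. With normexp background correction the latter count was 6, and 3.31% of all genes. No member was at least 2-fold higher in wild type (6.43% of all genes), and 2 were in deficient cells (7.24%): Ccne1 and Cenpf. Lower in both genotypes were 32 of 40 members, against 33.8% of all genes. In these bulk samples fewer dividing cells and less RNA per cell cannot be told apart.

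Replication genes had lower levels on the LPS arrays, with close medians in both genotypes. The MCM helicase genes Mcm2 to Mcm7 encode the ring that unwinds DNA at the fork, and all 6 were lower on both LPS arrays. Mcm7 had levels of 1.31 in wild type and 0.28 with LPS, and of 0.90 in deficient cells and 0.12 with LPS. Both LPS levels lay below both levels without LPS, with differences of -1.03 and -0.78. Mcm5 differed by -0.71 and -0.66, Mcm2 by -0.44 and -0.51, Mcm3 by -0.42 and -0.57 and Mcm4 by -0.41 and -0.29. Mcm6, whose window above holds 3 E2F matches, differed by -0.28 and -0.20.

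Pcna encodes the sliding clamp of the DNA polymerases. Its level was 4.49 in wild type, 3.63 with LPS, 4.36 in deficient cells and 3.68 with LPS, so that it was 1.82-fold and 1.60-fold lower with LPS. Rrm1 and Rrm2, the subunits of ribonucleotide reductase that makes deoxynucleotides, differed by -0.71 and -0.77 in wild type and by -0.66 and -0.38 in deficient cells. Rrm2 was also the replication gene furthest apart between the genotypes, at -0.86 without LPS. The thymidine kinase gene Tk1 differed by -0.68 and -0.47, the origin licensing gene Cdc6 by -0.49 and -0.55, and Gins2, a subunit of the replicative helicase complex, by -0.21 and -0.16. Gins2 thus differed by about its measurement error.

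Tyms, which encodes thymidylate synthase, ran the other way. Its levels were -2.18 in wild type, -1.67 with LPS, -2.09 in deficient cells and -1.66 with LPS. Both LPS arrays lay above both arrays without LPS, by 0.50 and 0.44. Over the 13 replication genes the median LPS difference was -0.49 in wild type and -0.51 in deficient cells. In each genotype 12 were lower, where 49.5% and 46.6% of all genes were.

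The G1/S regulators did not move as one. Ccnd1, the cyclin D1 gene that links growth factor signals to the cycle, had levels of 3.08 in wild type, 1.03 with LPS, 2.57 in deficient cells and 0.69 with LPS. Its levels with LPS lay clearly below those without, 4.15-fold lower in wild type and 3.69-fold lower in deficient cells. Ccne1, the cyclin E1 gene of S phase entry, had levels of 0.89, 1.03, 0.29 and 1.33 in the same order of groups. It was thus 2.06-fold higher with LPS in deficient cells and differed by 0.14 in wild type. A second Ccne1 probe differed by 0.47 in wild type and 0.65 in deficient cells. E2f1, an E2F factor that activates S phase genes, was higher with LPS by 0.13 in wild type and 0.42 in deficient cells.

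The mitotic class was lower on the LPS arrays as well, with a more negative median in deficient cells. The median over those compared was -0.50 in wild type (19 of 24 lower, 6 at least 2-fold) and -0.94 in deficient cells (23 of 25 lower, 11 at least 2-fold). Of all genes 49.5% and 46.6% were lower, and 5.09% and 5.5% at least 2-fold. Part of this contrast came with dim genes. For mitotic genes at a level of at least -2 on both arrays, 16 in each genotype, the medians were -0.69 and -0.91. Of these 4 were at least 2-fold lower in wild type and 5 in deficient cells, against 5.35% and 5.13% of all such genes. Stmn1 encodes stathmin, a microtubule-destabilizing protein that is not confined to dividing cells. Its level was 3.14 in wild type, 1.42 with LPS, 2.90 in deficient cells and 0.96 with LPS, 3.30-fold and 3.85-fold lower with LPS. A second Stmn1 probe gave -1.74 and -1.80, close to the -1.72 and -1.95 of the first.

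Birc5 encodes survivin, a subunit of the chromosomal passenger complex. Its levels were 2.32, 1.098, 1.85 and 0.57 in wild type, wild type plus LPS, deficient and deficient plus LPS. The LPS differences were -1.22 and -1.27, and 2 other probes gave -0.98 to -1.30 in wild type and -0.95 to -1.25 in deficient cells. Bub1, a spindle checkpoint kinase gene, was measured by 10 spots per array, with spot SDs of 0.09 to 0.17. Its levels were -2.41, -3.41, -2.84 and -4.03 in that order, and its LPS differences were -1.004 in wild type and -1.19 in deficient cells, with an error of 0.07.

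Among the cyclins and their kinase, Ccnb2 differed with LPS by -1.30 in wild type and -1.23 in deficient cells, Ccnb1 by -0.75 and -0.91, and Cdk1 by -0.53 and -1.02. Ccna2, the cyclin A2 gene of S phase and G2, differed by -0.47 in wild type and -1.24 in deficient cells. The mitotic kinase genes Plk1 and Aurka differed by -0.91 and -0.36 in wild type and by -0.94 and -0.52 in deficient cells. Cdc20, an activator of the anaphase-promoting complex, differed by -0.70 and -0.88. The ubiquitin-conjugating enzyme gene Ube2c, which works with that complex, differed by -0.17 and -0.62.

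The kinesin genes Kif20a, Kif23 and Kif11 encode motors of the spindle and of cytokinesis. Kif20a differed with LPS by -1.09 in wild type and -0.91 in deficient cells. Kif23 differed by -1.19 and -2.59, and Kif11 by -0.39 and -1.51. Prc1, which bundles the central spindle, differed by -0.67 and -0.98, the spindle assembly factor gene Tpx2 by -0.36 and -0.41, and the checkpoint gene Bub1b by -0.38 and -0.94. Cenpe, a kinetochore motor gene, differed by -0.80 and -0.81. Ndc80, which encodes a kinetochore subunit that binds microtubules, had levels of -3.05, -3.02, -2.50 and -3.54 in wild type, wild type plus LPS, deficient and deficient plus LPS. Its LPS difference was thus near 0 in wild type and -1.04 in deficient cells. Top2a, the topoisomerase that untangles DNA before chromosomes separate, had levels of -1.18, -1.62, -1.07 and -1.94 in wild type, wild type plus LPS, deficient and deficient plus LPS. Both of its levels with LPS lay below both without.

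Mki67, which encodes the proliferation marker Ki-67, was higher with LPS. Its levels were 1.75 in wild type, 2.21 with LPS, 1.53 in deficient cells and 1.88 with LPS, with differences of 0.45 and 0.35. A second Mki67 probe gave 0.59 and 0.22. The LPS differences of Mki67 thus had the opposite sign to those of Top2a, Birc5 and Ccnb2 on the same arrays. Its window above holds CHR and CCAAT letters, as most mitotic windows do.

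**Figure D2:**
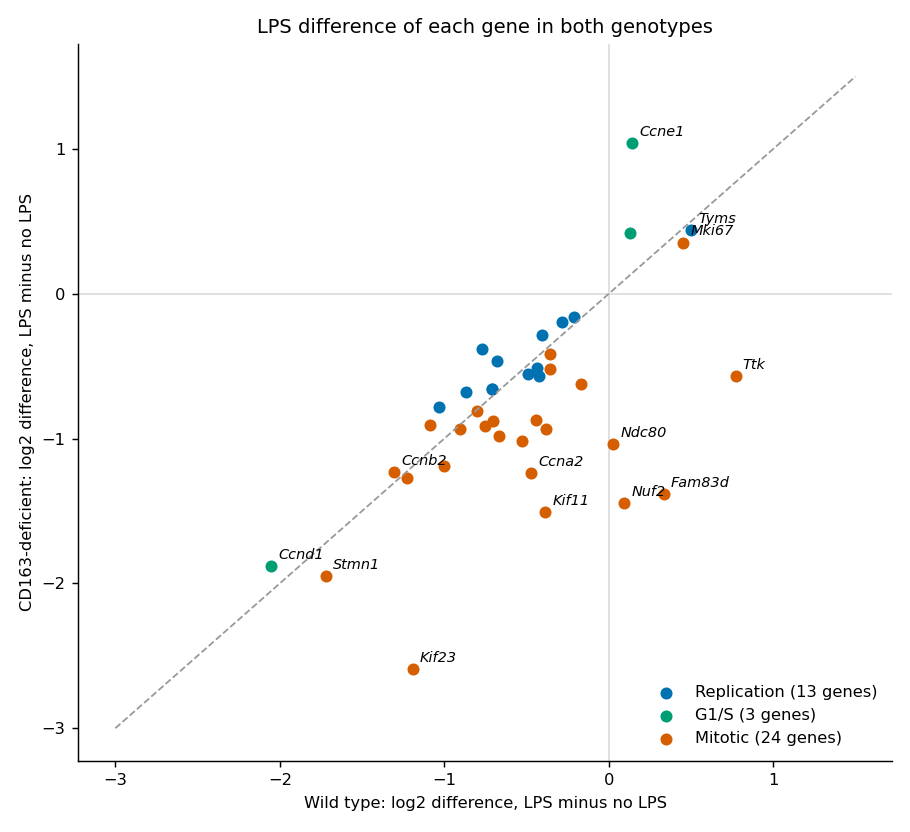
LPS difference of each gene in wild type (horizontal) and deficient cells (vertical), log2, 1 array minus 1 array, with the dashed line marking equal differences. Of 24 mitotic genes 22 lie below the line, and of 13 replication genes 4 do.

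The size of the LPS difference separated the classes between the genotypes. It was more negative in deficient cells than in wild type for 22 of 24 mitotic genes (median of the difference -0.27) and for 4 of 13 replication genes (median 0.05). Over all genes compared in both genotypes the share was 42.4% and the median 0.07. The measurement error of such a value draws on 4 arrays and is larger than the 0.20 of 1 difference. Several of the 22 lay even within 0.20, such as Cenpe (-0.01), Plk1 (-0.03), Birc5 (-0.05) and Tpx2 (-0.06). So did Mki67 (-0.10), Aurka (-0.16), Ccnb1 (-0.16) and Cdc20 (-0.17). Mki67 counts among the 22 although it was higher with LPS in both genotypes, by less in deficient cells. Several of the mitotic genes furthest below the line were dim. Where genes had a level of at least -2 on all 4 arrays, a limit set after the data were seen, 14 of 16 mitotic genes (median -0.16) and 2 of 11 replication genes (median 0.09) were more negative in deficient cells, against 36.1% of all such genes (median 0.11). With normexp correction 18 of 24 and 4 of 13 were, against 24.9% of all genes. With the mean of all probes 20 of 24 and 4 of 13 were, against 44.4%. With the dimmest probe 18 of 22 and 4 of 13 were, against 45%. This difference of differences rests on all 4 arrays, 1 per group, and was not tested.

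Between the genotypes without LPS, most members were slightly lower in deficient cells. Lower were 29 of 40 (median -0.21), against 57.9% of all genes (median -0.06). Only Fam83d, whose product recruits a kinase to the spindle, was at least 2-fold lower (1.16% of all genes), and no member was at least 2-fold higher (1.3%). With normexp correction no member was 2-fold lower, and the median of the members was -0.18 where that of all genes was -0.17. The replication class stood at a median of -0.21 (11 of 13 lower) and the mitotic class at -0.14 (15 of 24 lower).

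With LPS, the mitotic genes lay below wild type almost throughout in deficient cells. Of the 41 members compared 36 were lower (median -0.33), against 49.1% of all genes (median 0.01). Mitotic genes were lower in 24 of 25 cases with a median of -0.44, and replication genes in 11 of 13 cases with a median of -0.16. At least 2-fold lower were 3 members, Fam83d, Nuf2 and Kif23, where 1.09% of all genes were. At least 2-fold higher was 1 member, Cenpf, where 1.25% of all genes were. With normexp correction no member was, against 0.367% of all genes. This comparison and the 2 LPS comparisons share arrays, so their values are not independent of each other.

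Fam83d had levels of -3.11 in wild type, -2.77 with LPS, -4.26 in deficient cells and -5.65 with LPS. Both deficient levels were below both wild-type levels, 2.23-fold lower without LPS and 7.35-fold lower with LPS. These folds are the largest over the alternatives. The log2 differences ranged from -1.16 to -0.83 without LPS and from -2.88 to -1.30 with LPS. The level on the deficient LPS array lay close to the lowest level above background there, -5.75. Nuf2 encodes a kinetochore subunit, and its brightest probe had levels of -2.55, -2.46, -2.68 and -4.13, of which the deficient LPS array alone stood low. Cenpf encodes a kinetochore protein. It was not well above background on 3 arrays. As measured it was 3.29-fold higher with LPS in deficient cells and 5.01-fold higher there than in wild type with LPS. Over the alternatives these log2 differences fell as low as 0.75 and 0.93, so the folds are not lower limits.

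**Figure D3:**
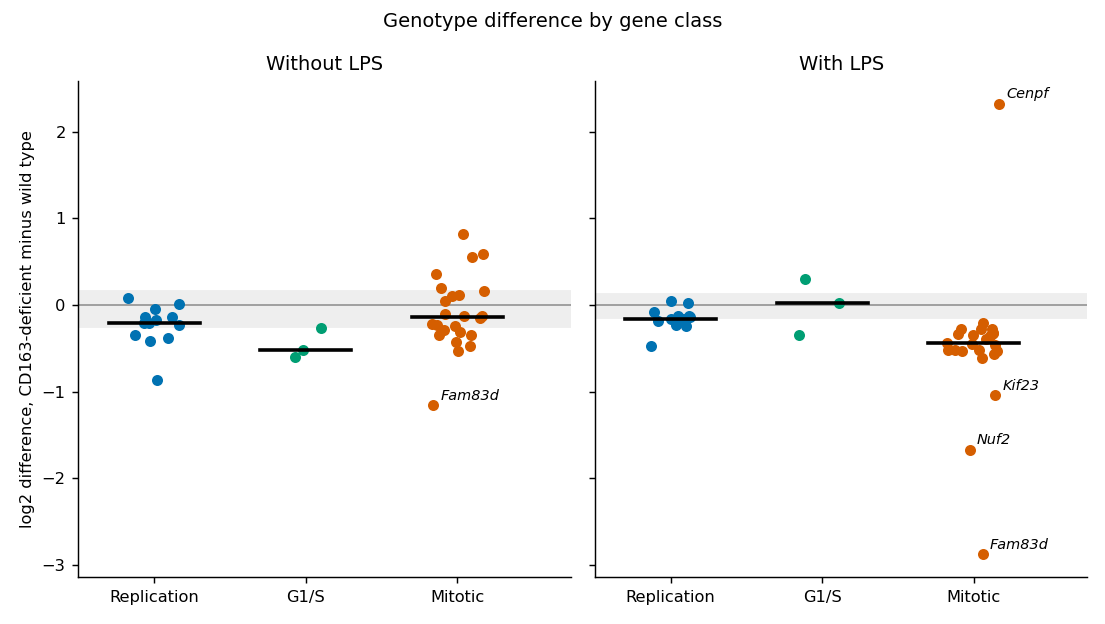
Genotype difference of each member without LPS (left) and with LPS (right), log2, CD163-deficient minus wild type, 1 array against 1, with black bars at class medians and the grey band at the quartiles of all genes compared. With LPS the mitotic median is -0.44 and the replication median -0.16.

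Different probes of a gene did not always give the same value. Of 13 members with more than 1 probe, all but Tk1, Cdk1 and Nuf2 kept the sign of both LPS differences in all their probes. For Nuf2 a second probe above background on all arrays differed with LPS by 0.39 in deficient cells, where the brightest gave -1.45, and its genotype difference with LPS was 0.03 against -1.67. A further Nuf2 probe was above background on 1 array and gives no usable difference. Kif23 differed with LPS by -0.58 in its other probe in deficient cells, against -2.59, and its genotype difference without LPS was -0.42 against 0.36. A second Cdk1 probe above background on all arrays gave 0.05 in deficient cells against -1.02, and another Ccnb1 probe gave -0.04 against -0.91. The second Ccne1 probe gave 0.65 in deficient cells against 1.04. Among these 13 members the 2-fold calls of Nuf2, Kif23, Cdk1 and Ccne1 therefore rest on 1 probe each.

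**Figure D4:**
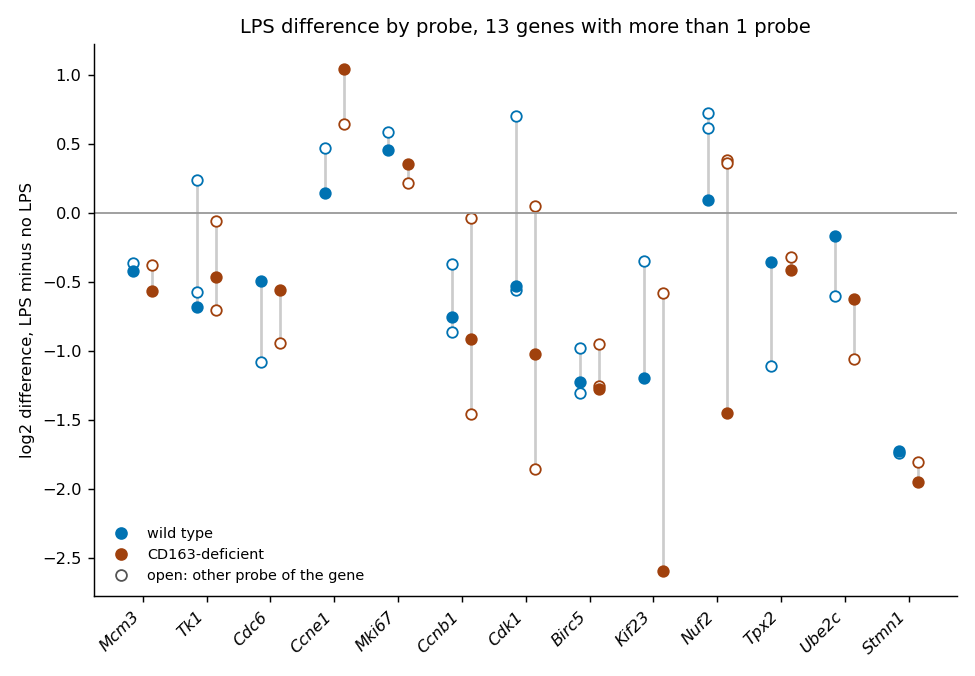
LPS difference (log2) by probe for the 13 members with more than 1 probe, in wild type (blue) and deficient cells (brown), with filled points for the brightest probe. The probes of Stmn1 and Birc5 lie close together, while those of Nuf2, Kif23 and Cdk1 span the zero line or a wide range, and 1 open point per genotype of Nuf2 and of Cdk1 is from a probe above background on 1 array.

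Other genes of these processes were mostly lower with LPS too. Of 42 further replication genes, 32 had lower levels with LPS in wild type (median -0.37, 3 at least 2-fold) and 31 in deficient cells (median -0.29, 2 at least 2-fold), where 49.5% and 46.6% of all genes were lower and 5.09% and 5.5% at least 2-fold lower, so that the 2-fold counts lay near the share of all genes. Between the genotypes with LPS 27 of the 42 were lower in deficient cells (median -0.09), against 49.1% of all genes. Cdt1, a licensing factor gene, differed by -1.18 and -0.88. Ung, a uracil-DNA glycosylase gene of DNA repair, was higher by 2.15 and 2.77, the deoxycytidine kinase gene Dck by 1.51 and 1.76, and the polymerase alpha subunit gene Pola2 by 1.16 and 1.71.

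Of all genes compared 49.5% were lower with LPS in wild type and 46.6% in deficient cells. At least 2-fold lower were 5.09% and 5.5%. Of 56 further mitotic genes 52 were lower in wild type (median -0.53, 11 at least 2-fold) and 53 in deficient cells (median -0.77, 19 at least 2-fold). The largest LPS differences in wild type among them were those of the condensin subunit gene Ncapg2 (-2.02, and -2.47 in deficient cells), the centromeric histone gene Cenpa (-1.80 and -2.26), the spindle pole gene Aspm (-1.52 and -1.98), Smc4 (-1.38 and -0.50) and Cdca3 (-1.37 and -1.58). The LPS difference was more negative in deficient cells for 39 of the 56, and for 18 of the 42 replication genes, against 42.4% of all genes, which is about the replication share. For those at a level of at least -2 on all 4 arrays these counts were 12 of 22 and 11 of 29, against 36.1%. With LPS, 51 of 56 were below wild type in deficient cells (median -0.33, none at least 2-fold). Of all genes 49.1% were, and 1.09% at least 2-fold.

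Of 30 cell cycle regulators 17 were lower with LPS in wild type and 16 in deficient cells. These counts lay near the shares of all genes, 49.5% and 46.6%. E2f2 differed by -2.19 and -1.95, Myc by -1.04 and -1.30, the ubiquitin ligase subunit gene Skp2 by -0.98 and -0.71, E2f3 by -0.93 and 0.07, and Foxm1 by -0.85 and -0.84. Mybl2, chosen after its values were seen, differed by 0.17 and 0.096. The list had no common direction.

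Markers of mesothelial cells and fibroblasts, other cells that a peritoneal culture can hold, were in part lower on the same arrays. Of 16 such markers 13 were lower with LPS in wild type (median -0.55), against 49.5% of all genes. With LPS in deficient cells 14 were lower (median -0.88), against 46.6% of all genes. In deficient cells 10 were lower than in wild type without LPS and 11 with LPS, where 57.9% and 49.1% of all genes were. All 16 were above background on 3 arrays and 15 on the deficient LPS array, where Lrrn4 was not. Their summed signal, relative to the 75th percentile, was 66.1 in wild type, 80.5 with LPS, 59.4 in deficient cells and 52.1 with LPS. The sum was thus higher with LPS in wild type and lower with LPS in deficient cells. It rests mostly on the brightest markers, Col1a1 and Col1a2, with levels of 4.73 and 4.88 in wild type. The sum therefore does not follow the count of markers that were lower. The largest LPS differences in wild type were those of the mesothelial markers Upk1b (-2.60, and -2.39 in deficient cells) and Krt18 (-2.01 and -1.38). Upk3b (-1.785 and -1.31), Lrrn4 (-1.665 and -4.29) and Msln (-1.565 and -1.81) followed, also mesothelial markers. The fibroblast and pericyte marker Pdgfrb was higher by 1.104 and 1.28 and the matrix gene Dcn by 1.15 and 0.22. Col1a2 differed by 0.51 and -0.23. The summed signal of the 10 general macrophage markers was 642.4, 768.7, 751.3 and 885.0 in the same order. The part of these markers in the results was not tested.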

How the data were processed

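The deposited scanner files give an intensity per spot. Their headers name version 10.7.1.1 of Feature Extraction, and the submitters' processing notes give 9.5.1.1. The processed signal is background-corrected inside each array. A deposited table of intensity values differed from a quantile normalization of those signals by a median of 0.0001 (log2) and served as an alternative. The members, gene lists and tests were chosen with earlier results of these data known.

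The 43020 non-control spots gave 39429 probes. Log2 signal minus the array's 75th percentile was averaged over spots, without outlier spots, and the brightest probe stood for a gene. A gene was above background where at least 50% of its spots were, and was compared where it was on either array. For counts of 2-fold differences, a gene above background on 1 array of a pair was set to its bound. That rule was adopted after counts without it had been seen, and those counts are an alternative. Genes named were the 4 brightest of each class, all members at least 2-fold apart and 10 preset ones, plus for other lists the furthest apart with LPS in wild type. Of these, 1 gene is not reported here. Other members are named after their values were seen. Positions on the arrays follow mm9, and promoters and their coordinates follow GRCm38.p6, which were not mixed. Alternatives used normexp in limma 3.58.1 (offset 50), other scalings, probes and filters. Python 3.11.15 was used, and the comparison code was tested on simulated data.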

Additional observations from a re-analysis of the deposited data

Results flagged for a closer look

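In 4 of 40 members compared in both genotypes the LPS difference had opposite signs, positive in wild type and negative in CD163-deficient cells. Of all genes 46.6% were lower with LPS in deficient cells and 33.8% in both genotypes, so such opposite signs were not particular to the members. The LPS difference of CD163-deficient cells minus that of wild type was -1.54 for Nuf2, -1.07 for Ndc80, -1.34 for Ttk and -1.72 for Fam83d. A second Nuf2 probe above background on all arrays was higher with LPS in both genotypes, by 0.614 (wild type) and 0.385 (deficient). Its LPS differences thus did not have opposite signs, although the deficient value was again the lower one. Ttk was not above background on 2 arrays, 1 in each genotype, so that its value rests on signals at background. Over the alternatives the wild-type LPS difference changed sign for Ndc80 (-0.15 to 0.03), Nuf2 (-0.03 to 0.73) and Ttk (-0.115 to 0.77). That of Fam83d stayed positive (0.08 to 0.33).

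In 11 further members the genotype difference had opposite signs with and without LPS, by -0.14 in Mcm3, 0.19 in Pcna, 0.29 in E2f1, 0.90 in Ccne1, -0.43 in Top2a, -0.77 in Ccna2, -0.49 in Cdk1, -0.56 in Bub1b, -1.12 in Kif11, -1.40 in Kif23 and -0.45 in Ube2c (with LPS minus without). With 1 array per group none of these differences was tested, and the smallest are within the measurement error of the spots. The share of all genes with such opposite signs was not computed. Other probes above background on all arrays kept 1 sign without and with LPS in Ccne1 (0.07 and 0.24) and Kif23 (-0.42 and -0.65). The same held for Mcm3 (-0.03 and -0.04) and Cdk1 (-0.62 and -0.01), but not for Ube2c (0.004 and -0.45).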

How the results depend on the processing

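Each result was recomputed under 8 alternatives and under 2 more chosen after seeing the data, a level of at least -2 on both arrays and 2-fold counts without bounds. No paired analysis was possible because each group holds 1 array. Of 200 recomputed values 180 stayed close to the reported ones, 16 moved and 4 turned sign. The 180 hold values that could not differ, since leaving out bounds changes only 2-fold counts. They also hold near duplicates, since the deposited table is almost the same as quantile normalization. A small count could change by 1 member, as from 3 to 2, and still be called close. With normexp the member median for LPS in deficient cells was -0.63, members at least 2-fold lower numbered 6 there and 0 for genotype without LPS, and the replication minus mitotic median was 0.14 for genotype with LPS and, turned in sign, -0.027 for LPS in wild type. Normexp also moved the median of all genes to -0.18 for LPS in wild type and -0.17 for genotype without LPS, against member medians of -0.47 and -0.18, so that members differed from all genes by little in the second comparison. With quantile normalization the replication minus mitotic median for LPS in wild type was -0.007. With the mean of all probes it was 0.13, and 1 member was at least 2-fold lower for genotype with LPS, as with the dimmest probe, which gave a replication minus mitotic median of 0.55 for LPS in deficient cells and 0.004 for genotype without LPS. Over genes at a level of at least -2 the member medians with LPS were -0.68 (wild type) and -0.67 (deficient), members at least 2-fold lower numbered 6 for LPS in deficient cells and 0 for genotype in both states, and the replication minus mitotic median for genotype without LPS was 0.01. Of the mitotic genes left there 14 of 16 had a more negative LPS difference in deficient cells (median -0.16), and of the replication genes 2 of 11. The causes were not tested. Without bounds, members at least 2-fold lower stayed at 8, 12, 1 and 3, and the shares of all genes were 5.12%, 6.48%, 1.34% and 2.45%. Signal at background leaves Ccne2 and Aurkb without a comparison and makes the differences of Cenpf and Ttk uncertain.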
